A study of Homo sapiens with 14 samples.

Results

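The 40 genes described here encode the machinery of the G2/M transition and of mitosis, and were taken by symbol from a list of mitotic genes among the 23106 gene symbols counted in each library. All 40 symbols were in the counts and all 40 passed the filter on low counts in every comparison. RNA was sequenced from PC3, a line from a prostate cancer, and HCT116, a line from a colon cancer, each kept in normoxia (21% O2) or moved to hypoxia (0.5% O2) for 16 h. Each PC3 group had 4 libraries and each HCT116 group 3, all of polyadenylated RNA from unmodified cells, with no drug, transgene or synchronisation named in any group. PC3 was grown in DMEM/Ham's F12 and HCT116 in McCoy's 5a, both with fetal bovine serum, so line and medium cannot be told apart. The study described the replicates as biological, and the p-values measure the spread between them.

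Cells enter mitosis when cyclin B and its kinase CDK1 become active, and they leave it when the anaphase-promoting complex (APC/C) marks cyclin B and securin for destruction. The transcripts of most of these genes are low in G1 and peak in G2 and mitosis, under the control of FOXM1, B-MYB and the MuvB complex, which act at CHR elements of their promoters, often beside CCAAT boxes bound by NF-Y. In G1 and in arrested cells the DREAM complex represses the same promoters. In RNA from whole cultures, fewer cells in G2 and mitosis and less mRNA per such cell cannot be told apart, and no cell cycle measurement was analysed here.

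The promoters of genes that fell in HCT116 (CCNB1, CDC20 and BUB1), of genes that rose there (MKI67 and CENPF) and of genes past the threshold in neither line under hypoxia (CCNB2, KIF11 and KIF4A) are shown as the 100 bases immediately before the annotated start, to let the shared letters be compared across the different responses. Capitals mark the letters of a CHR element (TTTGAA or TTCGAA) and of a CCAAT box, on either strand, and in MKI67 one of each overlap.
CCNB1 (chr5:68462877-68462976, plus strand): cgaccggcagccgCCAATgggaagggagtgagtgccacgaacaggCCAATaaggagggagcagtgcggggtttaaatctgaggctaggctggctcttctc
CDC20 (chr1:43824552-43824651, plus strand): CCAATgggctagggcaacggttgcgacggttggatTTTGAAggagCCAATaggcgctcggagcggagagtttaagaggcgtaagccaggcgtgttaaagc
BUB1 (chr2:111435641-111435740, minus strand): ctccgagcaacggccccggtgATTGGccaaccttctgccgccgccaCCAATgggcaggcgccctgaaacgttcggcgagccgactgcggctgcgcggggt
MKI67 (chr10:129924688-129924787, minus strand): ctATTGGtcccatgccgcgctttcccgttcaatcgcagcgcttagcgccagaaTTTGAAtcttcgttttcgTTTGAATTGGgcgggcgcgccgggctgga
CENPF (chr1:214776438-214776537, plus strand): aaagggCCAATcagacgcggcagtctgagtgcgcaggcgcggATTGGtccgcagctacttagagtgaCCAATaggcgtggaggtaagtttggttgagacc
CCNB2 (chr15:59397245-59397344, plus strand): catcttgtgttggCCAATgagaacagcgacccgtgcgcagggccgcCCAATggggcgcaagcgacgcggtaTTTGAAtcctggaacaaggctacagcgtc
KIF11 (chr10:94352787-94352886, plus strand): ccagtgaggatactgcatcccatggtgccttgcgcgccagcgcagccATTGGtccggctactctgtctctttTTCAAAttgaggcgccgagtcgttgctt
KIF4A (chrX:69509854-69509953, plus strand): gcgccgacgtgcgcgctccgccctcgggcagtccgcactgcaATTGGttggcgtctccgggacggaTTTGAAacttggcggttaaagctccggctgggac

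Promoters of 300 bases, 250 before and 50 after the start, were held for 33 of the 40 genes in the RefSeq table (GRCh38.p14), and the windows above were placed on GRCh37 by an exact match of their bases. FOXM1, AURKA, BUB3, TTK, UBE2C, TPX2 and BIRC5 had no entry. A gene with more than 1 start had a window for each, and was counted if any window held the letters. CHR letters (TTTGAA or TTCGAA, both strands) were found for 26 of the 33 genes (78.8%) and for 19.5% of all 27305 genes of the table. CCAAT letters were found for 27 of the 33 (81.8%) and for 39.7% of all, and both in one window for 21 of the 33 (63.6%) and for 7.85% of all. The core letters of the HIF binding sequence, ACGTG on either strand, were found for 12 of the 33 genes (36.4%) and for 24.9% of all. CCNB1, AURKB, CCNA2, CENPE, KIF20A, KIF2C and PTTG1 had neither TTTGAA nor TTCGAA in any of their windows. Variants of these letters were not searched, so an element with other letters would be missed. Promoters with these letters belonged to genes that fell, rose or did neither, as the sequences above show. A match of letters describes the sequence and does not show a bound site.

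The libraries held between 71228454 and 150630928 counts within genes. Levels are given as CPM, counts relative to library size, with the sizes adjusted by TMM factors over all 14 libraries. All 8 HIF target genes used as a check of the labels rose in hypoxia in each line, with a median log2 fold change of 1.66 in PC3 and 2.89 in HCT116. HOXB13 (81.0 CPM) and TMPRSS2 (20.4 CPM) were expressed in normoxic PC3 cells while KLK3 was at 0, and HCT116 expressed CDX2 (17.6 CPM in normoxia, 0 in PC3) but almost no VIL1, CDH17 or LGALS4. The 10 markers of leukocytes, endothelium and fibroblasts together gave 8.64 to 15.4 CPM in every library, mostly from COL1A1.

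PC3 libraries that stood apart bear on several of the genes. In the fourth hypoxic replicate of PC3, 7 of the 8 genes with the longest transcripts were at their lowest among the hypoxic libraries, MAD2L1 being the exception. These 8 genes, with transcripts of 5 kb or more, lay at a median of −0.58 on the log2 scale from the other 3 hypoxic libraries, and the 32 shorter ones at 0.06. CENPE, a kinesin of the kinetochore with an 8.54 kb transcript, had 24.97 CPM in that library and 116 to 121 CPM in the others. CENPF, a large kinetochore protein, had 142 CPM against 374 to 397 CPM. The Spearman correlation of this difference with transcript length was −0.63 over the 40 genes and −0.33 over 13798 genes, a description of 1 library. In the first normoxic replicate of PC3, 38 of the 40 genes were below their group mean, by a median of 0.18 on the log2 scale. Calls that leaving out either library makes or ends are given beside the gene.

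**Figure D1:**
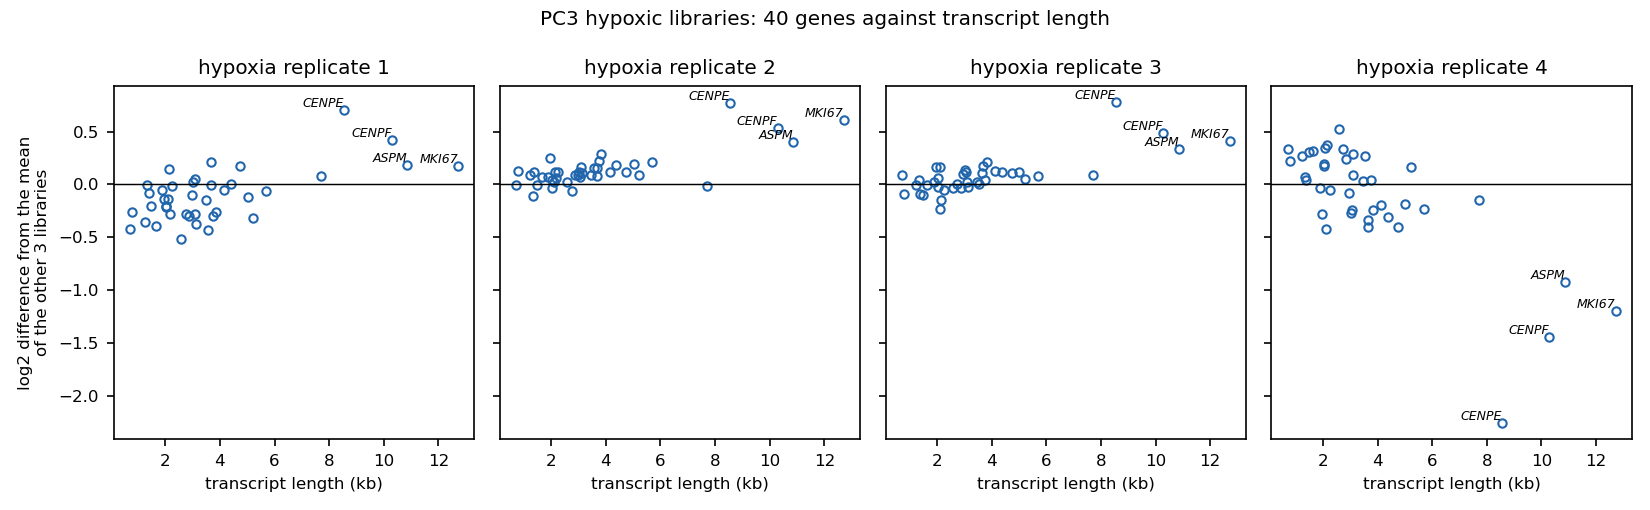
Difference of each of the 40 genes (points) in each PC3 hypoxic library from the mean of the other 3, on the log2 scale (vertical), against transcript length in kb (horizontal). The longest transcripts, CENPE, CENPF, ASPM and MKI67, lie far below 0 in replicate 4 and therefore above 0 in replicates 1 to 3.

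In normoxia, the 40 genes together accounted for 6278 ± 504 CPM in PC3 (SD, n = 4), or 6519 ± 176 CPM without the first PC3 library (SD, n = 3), and 8012 ± 43.1 CPM in HCT116 (SD, n = 3). In hypoxia the sums were 6489 ± 466 CPM and 7543 ± 135 CPM. The PC3 ranges of 5553 to 6676 CPM in normoxia and 6019 to 7002 CPM in hypoxia overlapped, while every hypoxic HCT116 library (7409 to 7678 CPM) was below every normoxic one (7970 to 8056 CPM). Per kb of transcript, UBE2C, the ubiquitin-conjugating enzyme of the APC/C, was the highest of the 40 in normoxic PC3 cells, at 261 CPM per kb, followed by CDK1 at 141 and TPX2, a spindle assembly factor, at 125. In normoxic HCT116 cells the highest were CDC20, the activator of the APC/C in mitosis, at 294 CPM per kb, CCNB1 at 265 and UBE2C at 161. The lowest were CDC25C at 6.67 and PLK4 at 9.90 CPM per kb in PC3, and CENPE at 4.96 and ASPM at 6.83 CPM per kb in HCT116. Ranges of neighbours in this order overlapped for 33 of 39 pairs in PC3 and 26 of 39 in HCT116, so most single steps in the order were within the spread between libraries.

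In HCT116, hypoxia lowered 9 of the 40 genes and raised 4, at an adjusted p below 0.05 (edgeR quasi-likelihood test, Benjamini-Hochberg adjusted over 14120 genes). These 13 genes are 32.5% of the 40, beside 25.9% called over all genes tested. The lower ones are 22.5% of the 40 beside 11.3% of all genes, and the higher ones 10.0% beside 14.6%. The log2 fold changes ran from −0.45 (TTK) to 0.39 (MKI67), with a median of −0.12 beside 0.00 over all genes, and 32 of 40 were below 0. All of these changes were smaller than a doubling or a halving. In 20 genes every hypoxic library was below every normoxic one and in 4 every one was above, beside 22.2% and 20.3% of all genes. Non-overlap in either direction held for 42.5% of all genes in this line.

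Among the genes of mitotic entry, CCNB1 and CDC25B fell in HCT116. CCNB1 (cyclin B1; chromosome 5, 68462962 to 68474072, GRCh37) had 515, 510 and 591 CPM in the normoxic libraries and 428, 381 and 397 CPM in the hypoxic ones. The 2 groups of libraries did not overlap, and the fall was 24.5% (log2 fold change −0.41 ± 0.08 SE, edgeR adjusted p = 0.00445). CDC25B, a phosphatase that activates CDK1, had 252, 248 and 226 CPM in normoxia and 183, 200 and 202 CPM in hypoxia (log2 fold change −0.30 ± 0.07 SE, edgeR adjusted p = 0.00819). It too was lower in every hypoxic library.

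CDK1, the kinase itself, did not pass the threshold in HCT116. It had 214, 220 and 231 CPM in normoxia and 212, 209 and 180 CPM in hypoxia, with a log2 fold change of −0.13 ± 0.08 SE. The hypoxic libraries were lower, but the first of them by only a small margin. FOXM1, the transcription factor that drives this programme, had 163, 146 and 146 CPM in normoxia and 140, 127 and 150 CPM in hypoxia, with overlapping libraries and a log2 fold change of −0.11 ± 0.08 SE. The log2 fold changes of CCNA2 (−0.08) and CCNB2 (−0.13), which encode cyclins A2 and B2, and of CDC25C (0.16), another CDK1 phosphatase, did not pass the threshold either.

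Of the mitotic kinases, PLK4, the kinase that licenses centriole duplication, fell in HCT116. It had 60.0, 61.6 and 58.1 CPM in normoxia and 48.9, 45.4 and 50.2 CPM in hypoxia, without overlap (log2 fold change −0.30 ± 0.06 SE, edgeR adjusted p = 0.00649). With offsets for transcript length and GC content its log2 fold change was −0.16 and its edgeR adjusted p = 0.0938. PLK1, the kinase that acts from mitotic entry to cytokinesis, had 266, 252 and 253 CPM in normoxia and 228, 208 and 238 CPM in hypoxia. All hypoxic libraries were lower, but the change missed the threshold (log2 fold change −0.18 ± 0.07 SE, edgeR adjusted p = 0.0733). It passed with DESeq2, with total-count scaling and with the offsets. AURKA, the centrosomal Aurora kinase, changed by −0.15 and AURKB, the kinase of the chromosomal passenger complex, by −0.08 on the log2 scale, neither past the threshold.

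The spindle assembly checkpoint, which holds the APC/C inactive until every kinetochore is attached, gave the largest fall. TTK (the checkpoint kinase MPS1; chromosome 6, 80713604 to 80752244, GRCh37) had 141, 149 and 152 CPM in normoxic HCT116 cells and 109, 109 and 102 CPM in hypoxic ones. The groups were well apart, with a log2 fold change of −0.45 ± 0.07 SE (edgeR adjusted p = 0.000817). With offsets for transcript length and GC content the log2 fold change of TTK was −0.29 (edgeR adjusted p = 0.00166). BUB1, a kinase that recruits checkpoint proteins to kinetochores, fell by 0.28 ± 0.07 SE on the log2 scale (edgeR adjusted p = 0.0103). BUB1B, which encodes BUBR1 of the mitotic checkpoint complex, fell by 0.24 ± 0.07 SE on the log2 scale (edgeR adjusted p = 0.0208). The call of BUB1B was lost without normoxic replicate 1 or 2 or hypoxic replicate 2, with log2 fold changes of −0.24, −0.21 and −0.22 and edgeR adjusted p-values of 0.0573, 0.0908 and 0.0650. For BUB3, the partner of BUB1 and BUBR1, the log2 fold change was −0.12 ± 0.06 SE and did not pass the threshold, although its hypoxic libraries were all lower. MAD2L1, which encodes the checkpoint protein MAD2, varied from 216 to 303 CPM within normoxia and showed a log2 fold change of 0.00 ± 0.12 SE. Thus 3 of the 5 checkpoint genes fell and none rose.

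The 3 genes that act with the APC/C moved in different directions in HCT116. CDC20 had 499, 477 and 476 CPM in normoxia and 423, 393 and 402 CPM in hypoxia, and fell by 0.24 ± 0.06 SE on the log2 scale (edgeR adjusted p = 0.0185). Its call was lost without normoxic replicate 1 or hypoxic replicate 2 or 3, with log2 fold changes of −0.23, −0.21 and −0.22 and edgeR adjusted p-values of 0.0600, 0.0647 and 0.0536. UBE2C rose, from 134, 122 and 119 CPM to 152, 153 and 148 CPM, without overlap (log2 fold change 0.28 ± 0.06 SE, edgeR adjusted p = 0.00872). With offsets for length and GC content the log2 fold change of UBE2C was 0.19 and its edgeR adjusted p = 0.0891, and without normoxic replicate 2 its edgeR adjusted p = 0.0524. PTTG1, which encodes securin, changed by −0.19 ± 0.08 SE and missed the threshold (edgeR adjusted p = 0.0833), which it passed with DESeq2, with total-count scaling, with the offsets (log2 fold change −0.24) and without hypoxic replicate 1 (edgeR adjusted p = 0.0450).

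Centromere and kinetochore genes also split. CENPF rose in HCT116, from 215, 208 and 200 CPM in normoxia to 250, 242 and 280 CPM in hypoxia (log2 fold change 0.33 ± 0.07 SE, edgeR adjusted p = 0.00586). CENPE fell, from 41.4, 43.7 and 42.1 CPM to 33.6, 36.8 and 34.8 CPM (log2 fold change −0.26 ± 0.06 SE, edgeR adjusted p = 0.0130). Neither gene's libraries overlapped between the conditions. CENPE did not pass with the length and GC offsets, where its edgeR adjusted p = 0.0830. The centromeric histone gene CENPA (−0.09) and the genes of the NDC80 complex, which binds microtubules, namely NDC80 (−0.17), NUF2 (−0.20) and SPC25 (−0.15), did not pass the threshold. NDC80 passed without normoxic replicate 3 (edgeR adjusted p = 0.0388).

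Of the 5 kinesins other than CENPE, KIF23, a motor of the central spindle, was the only one past the threshold in HCT116 with edgeR. It had 171, 174 and 162 CPM in normoxia and 133, 126 and 133 CPM in hypoxia, without overlap (log2 fold change −0.35 ± 0.06 SE, edgeR adjusted p = 0.00209). The bipolar spindle motor KIF11 (0.04), the cytokinesis motor KIF20A (−0.12), the microtubule depolymerase KIF2C (−0.02) and the chromokinesin KIF4A (0.01) showed small log2 fold changes that did not pass.

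Genes of the spindle, the midzone and cytokinesis were mostly within the spread. ANLN, which encodes the contractile ring protein anillin, rose from 327, 341 and 329 CPM in normoxia to 374, 395 and 395 CPM in hypoxia (log2 fold change 0.24 ± 0.06 SE, edgeR adjusted p = 0.0139), with every hypoxic library higher. Without normoxic replicate 1 or 2 its log2 fold changes were 0.22 and 0.25, with edgeR adjusted p-values of 0.0652 and 0.0507. The log2 fold changes of the other 7 genes lay between −0.14 (NUSAP1) and 0.01 (BIRC5), and none passed. These were TPX2 (−0.07), the passenger complex gene BIRC5 (survivin), the midzone organiser PRC1 (−0.10), the cytokinesis regulator ECT2 (−0.14), NUSAP1, a microtubule-binding protein of the spindle, the spindle pole gene ASPM (−0.06) and the spindle protein HMMR (−0.07).

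The 2 genes of mitotic chromosomes behaved differently from each other. MKI67 (the proliferation antigen Ki-67, which coats mitotic chromosomes; chromosome 10, 129894923 to 129924687, GRCh37) had 569, 488 and 503 CPM in normoxic HCT116 cells and 708, 601 and 712 CPM in hypoxic ones. Every hypoxic library was higher, and the rise was 31.0% (log2 fold change 0.39 ± 0.08 SE, edgeR adjusted p = 0.00659). With offsets for length and GC content the log2 fold change of MKI67 was 0.24 (edgeR adjusted p = 0.0372). TOP2A, the topoisomerase that separates sister chromatids, had 296, 318 and 299 CPM in normoxia and 280, 311 and 294 CPM in hypoxia, which overlap, with a log2 fold change of −0.03 ± 0.07 SE. The interval of the HCT116 change (95%) lay within 0.5 on either side of 0 on the log2 scale for 37 of the 40 genes, all but CCNB1, TTK and MKI67.

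**Figure D2:**
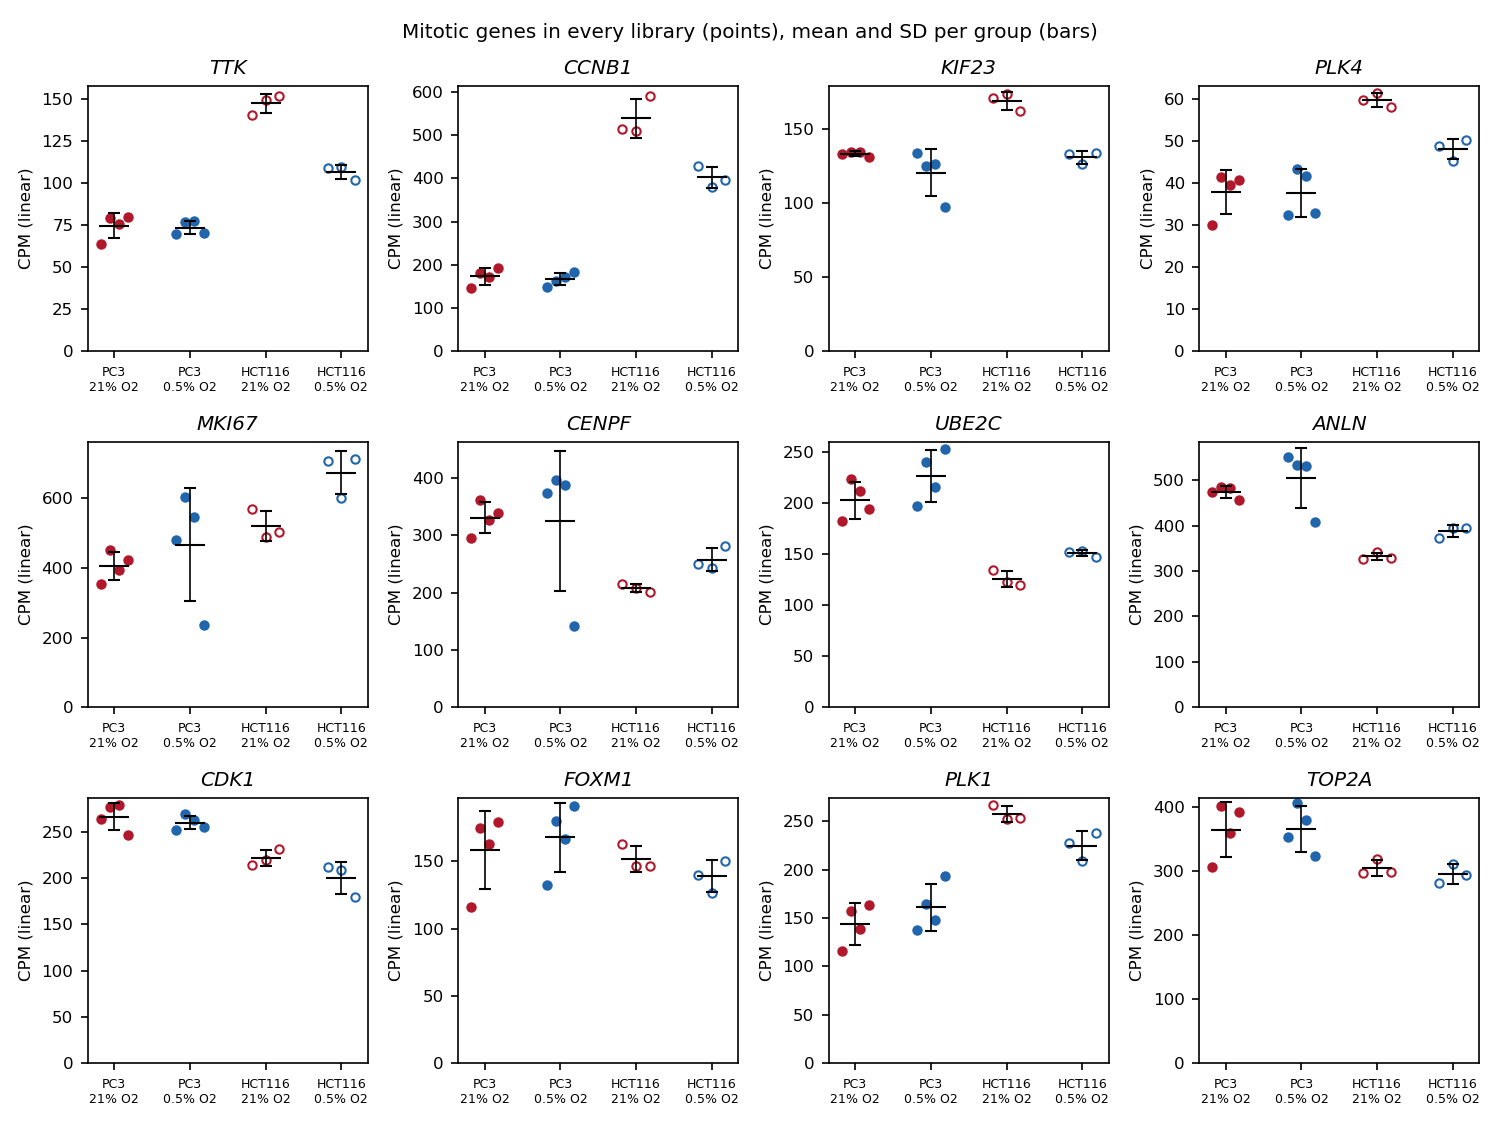
CPM (linear scale from 0) of 12 genes in every library, by line and oxygen, with the mean and SD of each group. In HCT116, TTK, CCNB1, KIF23 and PLK4 are lower and MKI67, CENPF, UBE2C and ANLN higher in every hypoxic library, while in PC3 the conditions overlap in all 12 genes, and 1 hypoxic PC3 library is low in MKI67 and CENPF.

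The HCT116 counts depend on how the libraries are scaled and on how the spread is estimated. With total-count scaling, which shifted the median of all genes by −0.09 on the log2 scale, 2 of the 40 genes were higher (CENPF and MKI67) and 20 lower, while over all genes 1286 were higher and 3146 lower in place of 2061 and 1597. When 1 fit over both lines estimated the spread, CCNB1, TTK and KIF23 were lower and none of the 40 was higher, beside 11.2% called over all genes.

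In PC3, none of the 40 genes passed the threshold in either direction (edgeR quasi-likelihood test, Benjamini-Hochberg adjusted over 14309 genes), beside 11.3% of all genes tested, 6.03% higher and 5.29% lower. At an unadjusted p below 0.05 there were 5, a count with no background share beside it. DESeq2 called 1, SPC25, as lower, beside 18.2% of all genes called in that fit. The log2 fold changes ran from −0.38 (CDC25B) to 0.32 (BIRC5), with a median of 0.03 beside 0.00 over all genes, and 24 of 40 were above 0. Without the first normoxic replicate the median was −0.03, and with length and GC offsets it was 0.07. NUSAP1 was higher in every hypoxic library, and BUB3 and SPC25 were lower in every one, beside 9.62% and 11.3% of all genes, or 20.9% in either direction. Precision differed between the genes. The 95% interval lay within 0.5 on either side of 0 on the log2 scale for 34 of them, and exceeded it for CDC25B, CENPE, CENPF, BIRC5, ASPM and MKI67.

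Of the mitotic entry genes in PC3, CCNB1 had 147, 181, 172 and 193 CPM in normoxic replicates 1 to 4 and 149, 164, 172 and 182 CPM in the hypoxic ones, with a log2 fold change of −0.05 ± 0.09 SE. CDK1 had 264, 277, 278 and 246 CPM in normoxia and 252, 269, 263 and 256 CPM in hypoxia (log2 fold change −0.03 ± 0.07 SE). The conditions overlapped for both. FOXM1 had 116, 175, 162 and 179 CPM in normoxia and 133, 180, 166 and 191 CPM in hypoxia (log2 fold change 0.09 ± 0.14 SE). The conditions overlapped, and each hypoxic library was higher than the normoxic one of its number. CCNA2 (0.01), CCNB2 (0.04) and CDC25C (−0.10) did not pass either.

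The 4 kinases in PC3 likewise overlapped between conditions. PLK1 had 116, 158, 139 and 164 CPM in normoxia and 138, 165, 148 and 194 CPM in hypoxia (log2 fold change 0.17 ± 0.13 SE). The hypoxic library was higher than the normoxic library of the same number in all 4 replicates. AURKA showed a log2 fold change of 0.17 ± 0.10 SE, AURKB of −0.04 and PLK4 of −0.01. The checkpoint genes BUB1 (0.05), BUB1B (−0.01), MAD2L1 (0.03) and TTK (−0.01), and the APC/C partners CDC20 (0.09), UBE2C (0.16) and PTTG1 (0.05), did not pass the threshold. TTK had 63.8, 79.0, 76.0 and 79.8 CPM in normoxia and 69.8, 76.9, 77.2 and 70.5 CPM in hypoxia, which overlap.

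Libraries of the same number, called partners here, deviated together in PC3 across 15493 genes (r = 0.81, 0.46, 0.30 and 0.39 for numbers 1 to 4). The best hypoxic library of another number gave r = −0.22, 0.26, 0.15 and 0.33, close to the partner for number 4. The study does not state a pairing, so fits with the block are given as alternatives. With the replicate number as a block, 4 of the 40 genes were higher in hypoxic PC3 cells (AURKA, CENPA, KIF20A and BIRC5) and 3 were lower (CDC25B, BUB3 and SPC25), beside 28.5% called over all genes in that fit. CDC25B had 79.9, 120, 106 and 132 CPM in normoxic replicates 1 to 4 and 68.4, 87.8, 82.1 and 96.3 CPM in the hypoxic ones. Each hypoxic library was lower than its partner, with a log2 fold change of −0.37 in the block fit (edgeR adjusted p = 0.00460). Within the 4 pairs, 10 of the 40 genes were higher in every hypoxic partner (FOXM1, PLK1, AURKA, CDC20, UBE2C, CENPA, KIF20A, TPX2, BIRC5 and NUSAP1) and 3 were lower in every one (CDC25B, BUB3 and SPC25). How many of all genes did so was not counted, so these counts have no background share beside them. KIF20A had 73.6, 96.6, 87.5 and 98.2 CPM in normoxia and 89.5, 113, 104.5 and 108 CPM in hypoxia. It was higher in each hypoxic partner (block log2 fold change 0.23, edgeR adjusted p = 0.0125).

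BUB3 had 184, 174, 186 and 164 CPM in normoxic PC3 cells and 160, 152, 160 and 142 CPM in hypoxic ones (block log2 fold change −0.20, edgeR adjusted p = 0.0147). SPC25 had 32.2, 36.8, 36.6 and 33.5 CPM in normoxia and 29.4, 27.7, 30.1 and 30.5 CPM in hypoxia (block log2 fold change −0.23, edgeR adjusted p = 0.0326). Both were lower in every hypoxic library, and SPC25 was close to the threshold without the block as well (edgeR adjusted p = 0.0551). AURKA (0.18), CENPA (0.19) and BIRC5 (0.31) were higher on the log2 scale with the block, with edgeR adjusted p-values of 0.0445, 0.0224 and 0.0297, and were higher in each of the 4 hypoxic partners. BIRC5 changed by 0.18 on the log2 scale when the fourth hypoxic library was left out of the fit without the block.

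The values of CENPE, CENPF, MKI67 and ANLN in PC3 depend on the fourth hypoxic replicate. MKI67 had 355, 450, 393 and 424 CPM in normoxia and 480, 604, 546 and 236 CPM in hypoxia (log2 fold change 0.21 ± 0.24 SE). It was higher than every normoxic library in 3 hypoxic libraries and lower than all of them in the fourth. Without that library its log2 fold change was 0.43 (edgeR adjusted p = 0.0229), that of ANLN was 0.19 (edgeR adjusted p = 0.0481) and that of CENPF was 0.23 (edgeR adjusted p = 0.0536). TOP2A had 306, 401, 359 and 391 CPM in normoxia and 353, 406, 380 and 323 CPM in hypoxia (log2 fold change 0.01 ± 0.10 SE), which overlap. CENPE changed by −0.29 ± 0.39 SE on the log2 scale with that library and by 0.03 without it. SPC25 was lower without it (edgeR adjusted p = 0.0408), and the fit without that library called 14.4% of all genes. Without the first normoxic replicate, CDC25B was the only one of the 40 past the edgeR threshold, at a log2 fold change of −0.50 (edgeR adjusted p = 0.0305). That fit called 10.6% of all genes.

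The remaining log2 fold changes in PC3 did not pass under any of these fits. They were 0.03 for NDC80 and −0.13 for NUF2 at the kinetochore, 0.04 for KIF11, −0.14 for KIF23, −0.01 for KIF2C and 0.02 for KIF4A among the kinesins, and 0.06 for TPX2, 0.09 for PRC1, 0.07 for ECT2, 0.11 for NUSAP1, −0.09 for ASPM and 0.03 for HMMR at the spindle and midzone. Over all genes in PC3, total-count scaling gave 562 higher and 1733 lower and upper-quartile scaling 681 higher and 1048 lower, in place of 863 and 757. Total-count scaling shifted the median of all genes by −0.10 on the log2 scale, and under it BUB3 and SPC25 were lower.

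**Figure D3:**
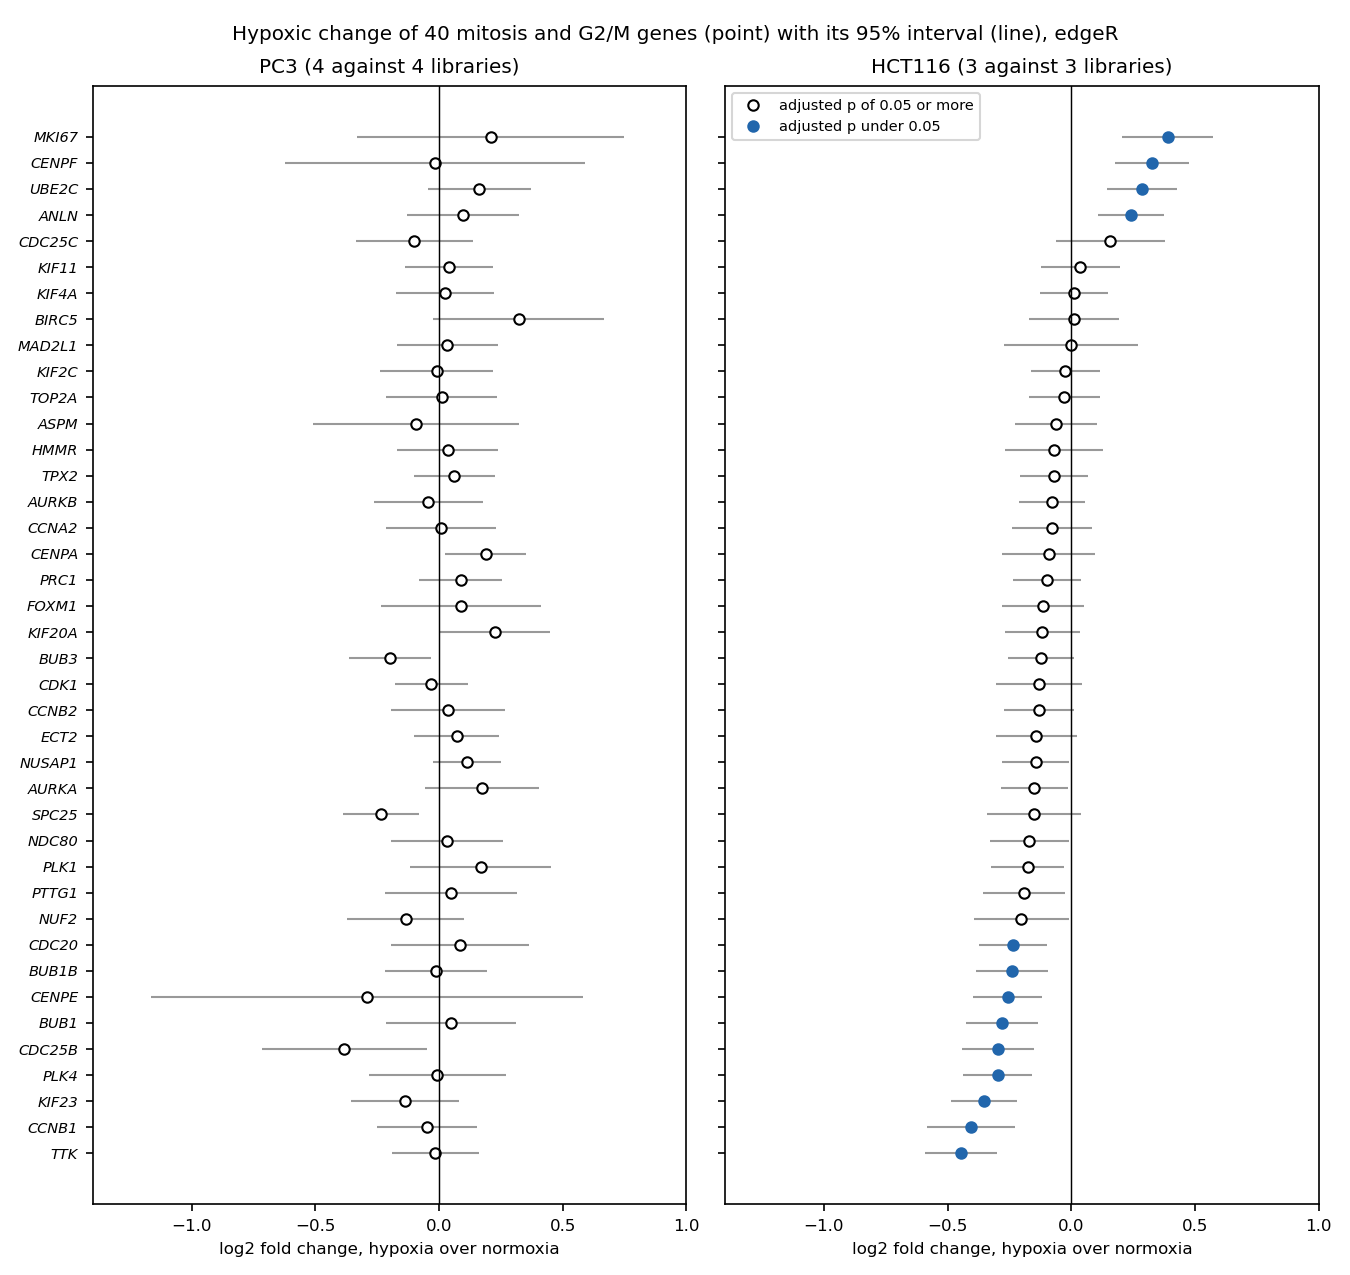
Log2 fold change of hypoxia over normoxia for each of the 40 genes in PC3 and HCT116, with its 95% interval and the edgeR call. Filled points, at an adjusted p under 0.05, occur in HCT116 for 4 genes to the right of 0 and 9 to the left, and for no gene in PC3, where the widest intervals belong to the long transcripts CENPE, CENPF and MKI67.

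Whether the response differed between the lines was tested as the interaction of line and oxygen over all 14 libraries, which uses the same libraries as the comparisons above. None of the 40 genes passed in either direction (edgeR, adjusted over 15493 genes), beside 2.32% of all genes, 1.01% with a higher value in PC3 and 1.31% with a lower one. The 95% interval of the difference lay within 0.5 on either side of 0 on the log2 scale for only 20 of the 40 genes. At an unadjusted p below 0.05 there were 6 of the 40, a count with no background share beside it. DESeq2 called 2, TTK and NUSAP1, beside 6.29% of all genes in that fit. The difference, PC3 minus HCT116, had a median of 0.13 on the log2 scale, or 0.09 without the first normoxic PC3 library, and was above 0 for 30 genes. The log2 fold changes were above 0 in PC3 and below 0 in HCT116 for 18 genes, below 0 in both for 14, above 0 in both for 6 and below 0 in PC3 only for 2.

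TTK came closest, with a difference of 0.44 ± 0.11 SE on the log2 scale (edgeR adjusted p = 0.0523). It had 63.8 to 79.8 CPM over all PC3 libraries, and in HCT116 at least 141 CPM in normoxia and at most 109 CPM in hypoxia. It passed when the first normoxic, the first hypoxic or the fourth hypoxic PC3 library was left out, with edgeR adjusted p-values of 0.0469, 0.0477 and 0.0271. For NUSAP1 the difference was 0.27 ± 0.09 SE, and every hypoxic library was higher than every normoxic one in PC3 and lower in HCT116. In PC3 it had 145, 162, 154 and 163.4 CPM in normoxia and 167, 178, 163.6 and 163.7 CPM in hypoxia. In HCT116 it had 196, 201 and 190 CPM in normoxia and 178, 176 and 170 CPM in hypoxia, so the groups touched in PC3 and stood apart in HCT116. For CCNB1 it was 0.37 ± 0.14 SE (edgeR adjusted p = 0.186), and for KIF20A 0.35 ± 0.14 SE (edgeR adjusted p = 0.230). In HCT116 KIF20A had 135, 141 and 122 CPM in normoxia and 116, 127 and 121 CPM in hypoxia, which overlap.

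With the replicate number as a block, 7 of the 40 genes passed the interaction test, all with a higher value in PC3, beside 8.43% of all genes in that fit. They were CCNB1 (0.37), PLK1 (0.36), AURKA (0.34), BUB1 (0.35), TTK (0.45), CDC20 (0.33) and KIF20A (0.36 on the log2 scale), with edgeR adjusted p-values between 0.0143 for TTK and 0.0361 for BUB1. Only in PC3 did every number match its partner best. With the block in PC3 alone the same 7 and NUSAP1 passed, beside 8.20% of all genes. Without the fourth hypoxic PC3 library, TTK, CENPE and KIF23 passed, beside 4.62% of all genes in that fit. There the difference for CENPE was 0.29 (edgeR adjusted p = 0.0454) in place of −0.02.

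In normoxia, 26 of the 40 genes were lower in PC3 than in HCT116 and 10 were higher (edgeR, adjusted over 15206 genes). Together 36 of 40 passed, beside 83.4% of all genes, where 42.9% were higher and 40.5% lower. The lower ones are 65.0% of the 40. The median was −0.46 beside 0.03 over all genes on the log2 scale. Lower in PC3 were 5 of the 6 genes of mitotic entry past the threshold, 5 of 5 checkpoint genes and the 3 kinases past the threshold.

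CCNB1, at 147 to 193 CPM in normoxic PC3 cells and 510 to 591 CPM in HCT116, had the largest difference (log2 ratio −1.66 ± 0.09 SE, edgeR adjusted p = 1.24e-07). CCNA2 (cyclin A2; chromosome 4, 122737599 to 122745038, GRCh37) had 107, 131, 125 and 124 CPM in PC3 and 272, 268 and 288 CPM in HCT116 (log2 ratio −1.20 ± 0.07 SE, edgeR adjusted p = 1.67e-07). BUB3 (chromosome 10, 124913918 to 124929983, GRCh37) had 184, 174, 186 and 164 CPM against 383, 387 and 386 CPM (log2 ratio −1.14 ± 0.06 SE, edgeR adjusted p = 1.27e-07). These genes were thus expressed at clearly separate levels, above the spread in either line. MAD2L1 (−1.44), CDC20 (−1.28), CCNB2 (−1.28), CDC25B (−1.17), AURKB (−1.08) and TTK (−1.003) were lower in PC3 by a log2 ratio of 1 or more as well.

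CDK1, the kinase partner of cyclin B, was higher in PC3, at 246 to 278 CPM against 214 to 231 CPM (log2 ratio 0.25 ± 0.07 SE, edgeR adjusted p = 0.00588). CENPE (chromosome 4, 104026506 to 104119602, GRCh37) had the largest difference in that direction, at 109, 124, 117 and 120.3 CPM in PC3 and 41.4, 43.7 and 42.1 CPM in HCT116 (log2 ratio 1.45 ± 0.06 SE, edgeR adjusted p = 1.21e-08). The others higher in PC3 were ASPM (0.85), UBE2C (0.67), CENPA (0.65), CENPF (0.65), ANLN (0.49), KIF4A (0.37), NDC80 (0.29) and TOP2A (0.24). FOXM1 (0.04), TPX2 (0.01), BIRC5 (−0.19) and AURKA (0.22) did not pass the threshold. Without the first normoxic PC3 library, FOXM1 (0.16) and AURKA (0.31 on the log2 scale) were higher in PC3, with edgeR adjusted p-values of 0.0314 and 0.000949. TOP2A did not pass in 5 of the 7 fits that left out 1 library, where its edgeR adjusted p-values lay between 0.0520 and 0.0987.

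Among the 6 genes of the centromere and kinetochore, 4 were higher in PC3 and 2 (NUF2 and SPC25, at −0.59 and −0.67) lower, with NDC80, NUF2 and SPC25 belonging to 1 complex. With offsets for transcript length and GC content NUF2 was at −0.24 and SPC25 at −0.17, both still past the threshold, and NDC80 at 0.59. The remaining lower genes lay between −0.92 (PRC1) and −0.35 (NUSAP1), and included PLK1 (−0.86), KIF11 (−0.91), PLK4 (−0.68), HMMR (−0.68) and MKI67 (−0.38). Between the hypoxic libraries of the lines, PC3 was higher in 10 of the 40 genes and lower in 19, beside 78.7% of all genes called in either direction. There NUSAP1, KIF23, KIF20A, ECT2, BUB1, BUB1B, MKI67 and CENPF did not pass. With the offsets there were 11 higher and 24 lower in normoxia, beside 84% of all genes called in either direction. PTTG1 went from −0.66 to −0.03 (edgeR adjusted p = 0.633) and NUSAP1 to −0.13 (edgeR adjusted p = 0.0594), while AURKA passed at 0.41. The offsets also moved CDK1 to 0.71, UBE2C to 1.21, CENPA to 0.99, CENPF to 0.42 and MKI67 to −0.80, each in the direction it had without them. Since the strand setting of the counting is not given, the counts are uncertain for CCNA2, CDC25C, FOXM1, PLK1, KIF20A, KIF4A and NUSAP1, whose exons overlap those of a gene on the opposite strand, as they are for BUB1B and CENPA, with such a neighbour on the same strand.

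**Figure D4:**
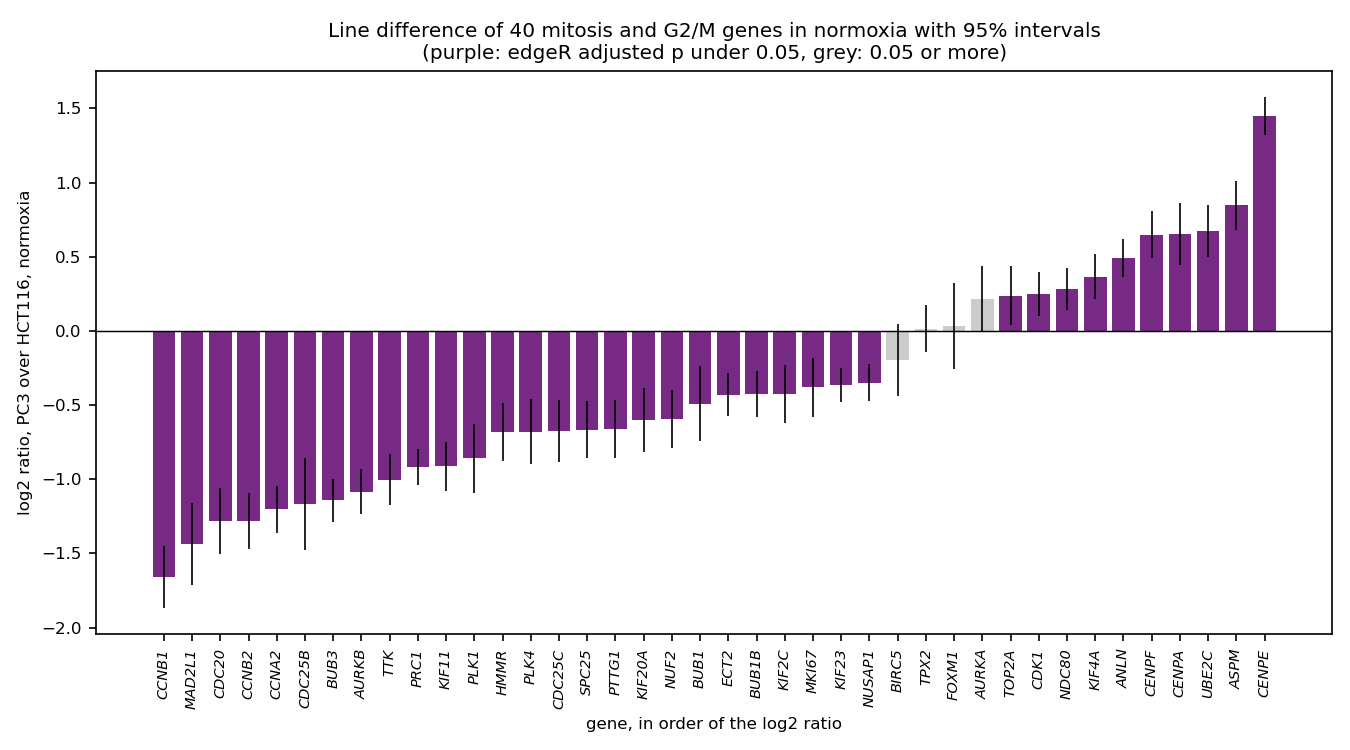
Log2 ratio of PC3 over HCT116 in normoxia for each of the 40 genes (bars, with 95% intervals), in order of the ratio. The bars run from −1.66 for CCNB1 to 1.45 for CENPE, with 26 genes significantly lower and 10 significantly higher in PC3, and 4 in grey that did not pass.

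Other genes of mitosis mostly fell where they passed the threshold. In HCT116 their counts stand beside 14.6% higher and 11.3% lower over all genes, and in PC3 beside 6.03% and 5.29%. Of 42 other genes with peaks in G2 and mitosis, 11 (26.2%) fell and none rose, with a median log2 fold change of −0.16 beside 0.00 over all genes, and in PC3 1 fell (LMNB1, lamin B1, −0.31) and none rose, with a median of −0.07. The largest falls in HCT116 were those of TROAP (−0.50), a spindle-associated protein, the kinesin KIF18A (−0.47), the spindle gene DLGAP5 (−0.40) and G2E3 (−0.39). Of 28 other centromere and kinetochore genes, 5 fell and 1 rose in HCT116, among them CENPT (−0.47) and CENPH (0.28), and none passed in PC3 with edgeR. Of 16 APC/C subunits and its inhibitor, 4 fell in HCT116 and 2 in PC3, and CDC16 fell in both, by 0.29 in HCT116 and by 0.22 in PC3 on the log2 scale. Of 13 condensin and cohesin subunits, 2 (15.4%) fell in HCT116 (SMC4, −0.28, and SMC3, −0.24), a share near that of all genes.

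Of 13 genes of MuvB, DREAM and B-MYB, 2 fell in HCT116 (LIN52, −0.45, and LIN9, −0.27, both subunits of MuvB) and 2 in PC3 (RBL1, −0.41, which encodes the pocket protein p107, and TFDP2, −0.37, a dimerisation partner of E2F). Each count is 15.4% of the 13, near the 11.3% of all genes lower in HCT116 and beside 5.29% in PC3. Of 20 tested genes for G1 cyclins, G1 CDKs, E2Fs and CDK inhibitors, 6 rose and 1 fell in HCT116. These are 30% and 5% of the 20, beside 14.6% higher and 11.3% lower over all genes. The rises included the CDK inhibitors CDKN1C (1.49), CDKN2B (0.62), CDKN1A (0.55) and CDKN1B (0.32 on the log2 scale). In PC3, CDKN2C (0.34) and E2F7 (0.28) rose, 10% of the 20 beside 6.03% of all genes. CDKN1C, at 0.60 ± 0.19 SE in PC3, did not pass (edgeR adjusted p = 0.0696). Of 26 genes of replication and S phase, 4 rose and 4 fell in HCT116, each 15.4% beside 14.6% and 11.3% of all genes, including TK1 (thymidine kinase, 0.57) and RFC4 (a clamp loader subunit, −0.50), and 1 fell in PC3 (RFC4, −0.41). None of these genes passed the interaction test with edgeR. In normoxia, 26 of the 42 other G2/M genes, 15 of the 16 APC/C genes and 22 of the 26 replication genes were lower in PC3 than in HCT116, and 10, 0 and 1 of them were higher, beside 40.5% of all genes lower and 42.9% higher.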

How the data were processed

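Per the labels and the study's methods, the authors aligned reads with HISAT2 (version 2.05 in the submitters' processing notes) to ERCC sequences and then to GRCh37, and deposited HTSeq (0.5.4p3) counts within RefSeq genes for each library, not normalised. The RefSeq release and the strand setting are not given in the sources used here. ERCC reads, HIF-1β knock-out libraries and ChIP-seq were not analysed here.

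Counts were analysed with edgeR 4.0.16 (R 4.3.3; filterByExpr, TMM, quasi-likelihood test, Benjamini-Hochberg adjustment over all genes tested, threshold 0.05), tested on simulated data; DESeq2 1.42.0 was an alternative. Each line was fitted alone; the interaction and the line comparison used their own fits. SE was taken from the unshrunk log2 fold change and the F statistic. Transcript lengths and positions came from GENCODE on GRCh37 (87.0% of symbols matched). Pairing was judged from correlations of deviations from group means over 15493 genes. In PC3 every same-number correlation was over 0.1 and above the best with another number, though by little for number 4 (0.39 against 0.33). In HCT116 they were 0.08, 0.32 and −0.05, and the best with another number were 0.15, −0.09 and 0.12, so only number 2 matched. Chi-square values between replicates of a group ranged from 12.5 to 268 over genes tested, far above counting error, and none was a repeat deposit.

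The genes and lists were chosen with earlier results of these data known. All 40 genes are named. Values in every library were given for CCNB1, CDK1, FOXM1, PLK1, MKI67 and TOP2A, for the 4 largest rises and falls past the threshold in each line, and for the 4 smallest adjusted p-values of the interaction and of the line comparison; those of CDC25B, SPC25 and CDC20 were added after their values were seen. From other lists, the text names up to 4 genes with the largest called changes, among those averaging 1 CPM or more. Each of the 40 genes had at least 1010 counts in every library.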

Additional observations from a re-analysis of the deposited data

Results flagged for a closer look

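In 8 of 80 groups of 4 PC3 libraries (40 genes in 2 conditions), 1 library lay far from the other 3 by Dixon's criterion, where chance gives about 4. All 8 were in 2 libraries. In the first normoxic replicate, PLK4 had 30.1 CPM against 39.6 to 41.5, KIF11 had 55.2 CPM against 62.5 to 63.9, BIRC5 had 253.0 CPM against 336 to 339, and ECT2 had 178 CPM against 203 to 208. In the fourth hypoxic replicate, CENPE had 24.97 CPM against 116 to 121, CENPF had 142 CPM against 374 to 397, NDC80 had 58.3 CPM against 77.3 to 79.1, and ANLN had 407 CPM against 530.4 to 551. Groups of 3 libraries in HCT116 were not tested in this way.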

How the results depend on the processing

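In PC3, 1 of the 40 genes was lower with upper-quartile scaling or DESeq2, beside 12.1% and 18.2% of all genes called in either direction. With a minimum of 10 counts in every library (12.1%) or both libraries numbered 1 left out (12.5%), 1 was also lower. Total-count scaling gave 2 lower beside 16%, and 1 fit over both lines 2 lower beside 15.9%. With the replicate block 4 were higher and 3 lower, beside 28.5% of all genes called. The counts were the same with length and GC offsets added, beside 33.8%. Leaving out 1 PC3 library gave 0 to 2 higher and 0 to 1 lower, beside 3.83% to 14.4% of all genes called. In HCT116, total-count scaling gave 2 higher and 20 lower, beside 31.4% of all genes called. With 1 fit over both lines, 0 were higher and 3 lower, beside 11.2%. Leaving out 1 library gave 2 higher (without the second normoxic one) to 4 higher and 7 to 10 lower, beside 17.9% to 23.4%. The replicate block changed no HCT116 call among the 40 genes. In the interaction, median-of-ratios scaling and the minimum of 10 counts gave 1 higher each, beside 2.41% and 3.41% of all genes called. DESeq2 gave 2 beside 6.29%, the replicate block 7 beside 8.43% and the block in PC3 only 8 beside 8.2%. Leaving out 1 library gave 0 to 3 beside 1.13% to 4.62%, and none was lower in any of these fits. The difference for CENPE ran from −0.15 to 0.29 over the libraries left out, with 0.29 without PC3 hypoxia replicate 4. In normoxia, differences of at least 1 on the log2 scale were 1 higher and 9 lower in PC3. Calls of any size there were 9 to 12 higher and 26 lower when 1 library was left out, beside 80% to 85.2% of all genes called. Changes of direction were counted where a value passed the threshold. The causes of these differences were not tested. Alternatives with length and GC offsets, both first PC3 libraries left out, offsets with the block, the difference of at least 1 and the PC3-only block were chosen after seeing the data.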
